A study of Mus musculus with 54 samples.

Results

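BMAL1 was returned to the liver of mice that otherwise lack it, and the liver transcriptome of these mice was compared with that of BMAL1 knockout mice at one time of day, ZT20. ZT counts hours from lights on, so ZT20 lies in the later part of the dark phase, when mice are active and feed. The 6 libraries compared are all those labelled Liver-RE or KO at ZT20, 3 per genotype, out of 54 libraries in the series. Livers were from female C57BL/6J mice aged 8-12 weeks, kept on 12 h of light and 12 h of dark with normal chow at all hours. The KO mice are labelled as BMAL1 knockout. The Liver-RE mice carried BMAL1-stop-FL and are labelled as the same knockout with BMAL1 reconstituted in the liver, so both groups share the loss of BMAL1 elsewhere. The labels used here do not give the Cre driver or the liver cells that regained BMAL1. WT livers of the same hour, also 3, are given beside the results for reference. The series, whose title concerns the autonomy of the liver clock, holds these 3 genotypes at 6 harvest times (ZT0, 4, 8, 12, 16 and 20) with 3 livers each. The 30 Liver-RE and KO libraries of the other 5 times were used to ask what was particular to ZT20.

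BMAL1, encoded by Arntl, pairs with CLOCK or NPAS2 and binds E-box sequences, where it drives the Per and Cry repressors, the nuclear receptors REV-ERB alpha and beta (Nr1d1 and Nr1d2) and the D-box factor Dbp. PER and CRY proteins then restrain BMAL1 and CLOCK, and the REV-ERBs repress genes with ROR elements, Arntl, Clock, Npas2 and Cry1 among them. In liver this loop gives daily timing to lipid, bile acid, heme, sugar and drug metabolism, and many of its targets also respond to feeding.

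Values are FPKM, that is, a read level scaled to transcript length and library depth, as taken from the deposited table. Tests were made on log2(FPKM + 1), a scale that understates the change of low genes, for the 11804 genes whose mean over the 6 libraries was 0.5 FPKM or more. Differences are Liver-RE minus KO on that scale, with their standard error (SE). A gene is called higher or lower where the limma p-value adjusted by the Benjamini-Hochberg method passed 0.05. Adjusted p-values below are of this kind. Depth in the 6 libraries, read from the steps that 1 read makes in low values, was between 25.8 and 35.96 M reads (mega reads).

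Several of the 6 libraries stood apart from their group. The nearest time of each library was found from the distance of its 24 measured clock genes to the mean profile of each Liver-RE harvest time, the library itself left out. None of the 3 Liver-RE libraries of ZT20 was nearest to ZT20. Replicate 1 was nearest to ZT0, at a distance of 3.12 log2 units against 4.78 to ZT20. Replicate 2 was nearest to ZT16 (1.54 against 3.38) and replicate 3 was nearest to ZT16 by a small margin (2.87 against 3.00). The ZT20 profile for replicate 2 was the mean of replicates 1 and 3, and that for replicate 3 the mean of replicates 1 and 2. Replicate 1 thus weighs on both distances to ZT20, while profiles of other times held 3 libraries. These distances therefore cannot show that replicates 2 and 3 were out of phase. With WT profiles in place of those of Liver-RE, replicate 1 was nearest to ZT4, replicate 2 to ZT20 and replicate 3 to ZT0. Over all 18 Liver-RE libraries, 8 were nearest to their own harvest time. Liver-RE replicate 2 also stood apart in genes of cell division: 42 of 54 tested histone genes and 13 of 21 cell cycle genes were more than 2-fold above both other Liver-RE libraries. With 11804 genes tested, 161 were that far above both others in replicate 2, 71 in replicate 1 and 27 in replicate 3. Genes that far below both others numbered 24 in replicate 2, 32 in replicate 1 and 27 in replicate 3. Mki67, a marker of dividing cells, was 0.908, 11.2 and 0.850 FPKM in the Liver-RE libraries and 0.533, 1.73 and 0.899 in KO.

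At ZT20, 65 of the 11804 tested genes (0.551%) were called, 28 higher in Liver-RE (0.237%) and 37 lower (0.313%). Of these, 24 of the higher and 28 of the lower genes differed by 2-fold or more. No gene of the 65 had overlapping groups, while groups did not overlap in 23.5% of all tested genes. An unadjusted p passed 0.05 in 430 genes higher in Liver-RE (3.64%) and 1598 lower (13.5%), and the median difference over all tested genes was −0.09. Differences were negative in 7959 of all tested genes and positive in 3845.

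The number of calls moved with single libraries. It was 26 (0.22%) without Liver-RE replicate 1, 40 without Liver-RE replicate 2 and 103 without Liver-RE replicate 3. It was 19 without KO replicate 2 and 17 without KO replicate 3. All 65 genes kept their sign without Liver-RE replicate 1, and 24 kept their call. The adjusted p without that library is given below for only some of the genes that lost their call. The 13 genes called whichever library was left out include Mme, Cyp2b13, Slc22a26, Ces1b, Ces1d and Slc39a5 among the higher and Hectd2os, Loxl4, Lpl, Gstm2, Atp11a and Ndrg1 among the lower. The other 52 lost the call in at least 1 of these fits. A wider fit of all 36 Liver-RE and KO libraries, which estimates the spread from every time, called 296 genes at ZT20 (2.51%), among them 62 of the 65. That fit called 118 (1%) without Liver-RE replicate 1.

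The targeted gene came first. Arntl RNA was 4.68, 8.47 and 10.6 FPKM in the Liver-RE livers of ZT20 and 8.66, 7.39 and 8.12 in the KO livers. WT livers had 9.06, 11.0 and 12.1. The Liver-RE and KO values overlap, and the difference was −0.08 ± 0.25 (adjusted p = 0.883). The RNA therefore does not check the genotype labels at this hour. It did separate the groups at ZT4 and ZT8. At ZT4 the Liver-RE mean was 1.65 ± 0.407 FPKM (SD, n = 3) against 7.80 ± 0.402 in KO, a difference of −1.74 (adjusted p = 0.00103). At ZT8 the difference was −1.78. Arntl was not called at ZT0 (−0.26, adjusted p = 0.868), ZT12 (−0.56, adjusted p = 0.319) or ZT16 (0.10, adjusted p = 0.683).

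Cyp2b13, Cyp2a4 and Sult3a1, enzymes that female mouse livers make in excess of male ones, were called higher in Liver-RE. Cyp2b13, a female-biased cytochrome P450, was 82.7, 50.3 and 60.6 FPKM in Liver-RE against 2.85, 0.296 and 1.37 in KO. It differed by 4.82 ± 0.38 (adjusted p = 0.00466), with WT livers below every Liver-RE liver at 16.3, 48.6 and 10.5. Cyp2a4, a steroid 15-alpha-hydroxylase, was uneven among the Liver-RE livers, at 78.2, 249 and 47.6 FPKM, against 2.65, 2.58 and 2.97 in KO and 745, 262 and 427 in WT. It rose by 4.73 ± 0.53 (adjusted p = 0.014, and 0.0726 without Liver-RE replicate 1). Sult3a1, a female-biased sulfotransferase, was 27.2, 11.1 and 10.5 FPKM in Liver-RE and 0.247, 0.507 and 0.420 in KO, a difference of 3.51 ± 0.33 (adjusted p = 0.0089). Cyp2a4 and Cyp2b13 have close paralogs, and how the authors' counting split shared reads is not stated, so their levels are uncertain.

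Of 25 tested genes of the female-biased list, 4 were called higher, the 3 above among them, and 0 lower, and the list's median difference was 0.61 (3 higher and a median of 0.59 without Liver-RE replicate 1). Of all tested genes 0.237% were called higher. The list did not move as one: 17 differences were positive and 8 negative, down to −1.36. At an unadjusted p under 0.05, 13 were higher and 2 lower, beside 3.64% and 13.5% of all tested genes. Over the other 5 times 13 were called higher and 2 lower, beside 6.16% and 18.6% of all tested genes. Other members did not pass. Cyp17a1, a steroid hydroxylase, was 69.3, 10.6 and 40.6 FPKM in Liver-RE and 3.11, 0.256 and 0.984 in KO (adjusted p = 0.0796). Acot3, a peroxisomal acyl-CoA thioesterase, was 28.7, 53.4 and 13.6 against 4.39, 1.83 and 4.56 (adjusted p = 0.0796). Both had groups that did not overlap. Of 24 tested male-biased genes, 1 was called, and the median was −0.27. It was Susd4, a membrane regulator of complement, higher in Liver-RE at 0.906, 1.08 and 0.830 FPKM against 0.0796, 0.114 and 0.170. Its adjusted p was 0.0233, and 0.0968 without Liver-RE replicate 1. At an unadjusted p under 0.05, 1 of the 24 was higher and 6 lower. Over the other 5 times 1 was called higher and 7 lower. The shares of all tested genes given above apply to these counts too.

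Mme and the transporter genes Slc22a26, Slc47a1 and Slc39a5 were also called higher. Mme, the endopeptidase neprilysin (chr3:63295211-63383713, GRCm38.p6), had the smallest p-value of all genes: it was 14.4, 12.3 and 10.8 FPKM in Liver-RE, 0.549, 0.517 and 0.337 in KO and 18.7, 6.64 and 9.86 in WT. The replicates were close within each of the 2 groups compared, and the difference was 3.19 ± 0.13 (adjusted p = 0.000317). Slc22a26, an organic anion transporter, was 49.97, 69.6 and 43.2 FPKM in Liver-RE and 5.13, 3.93 and 7.55 in KO, a rise of 3.09 ± 0.24 (adjusted p = 0.00466). Slc47a1, the MATE1 exporter of organic cations, was 30.8, 30.1 and 31.3 against 14.5, 9.02 and 9.09. It rose by 1.45 ± 0.18 (adjusted p = 0.0212, and 0.0968 without Liver-RE replicate 1). Slc39a5, a zinc importer, was low in all livers but near 0 only in KO, at 1.51, 1.499 and 1.73 FPKM against 0.0185, 0.0235 and 0.0778.

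Ces1d, Ces1b, Dio1 and Ugt1a9 were called higher too. Ces1d, an abundant carboxylesterase that hydrolyses triglyceride, was 524, 576 and 542 FPKM in Liver-RE and 189, 137 and 163 in KO, with WT at 775, 668 and 656. It rose by 1.75 ± 0.15 (adjusted p = 0.00534). Its neighbour and paralog Ces1b was 19.5, 21.4 and 21.2 against 5.37, 4.62 and 7.38, a rise of 1.69 ± 0.16. The Liver-RE livers differed little from each other in either gene, and lay below every WT liver. Dio1, the deiodinase that turns thyroxine into active thyroid hormone, was nearly equal in the Liver-RE livers at 62.7, 63.9 and 63.3 FPKM, against 8.52, 16.6 and 16.8 in KO. It rose by 2.16 ± 0.24 (adjusted p = 0.014, and 0.0764 without Liver-RE replicate 1). Ugt1a9, a glucuronosyltransferase whose exons are partly shared with other Ugt1a genes, was 50.6, 69.6 and 76.3 FPKM against 12.1, 13.6 and 25.8, a rise of 1.93 ± 0.29 (adjusted p = 0.0417, and 0.0968 without Liver-RE replicate 1).

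Decr2, Cpox and Aldh3a2 rose by smaller amounts. Decr2, a peroxisomal reductase for unsaturated fatty acids, was 101, 96.0 and 88.6 against 57.8, 57.8 and 55.5, a rise of 0.73 ± 0.10. Cpox, coproporphyrinogen oxidase of heme synthesis, was 46.6, 43.7 and 42.3 against 28.0, 27.6 and 25.2, a rise of 0.70 ± 0.10 (adjusted p = 0.0357, and 0.125 without Liver-RE replicate 1). Aldh3a2, the fatty aldehyde dehydrogenase, was 75.2, 62.8 and 58.1 against 27.5, 16.8 and 25.1, a rise of 1.48 ± 0.20 (adjusted p = 0.0264, and 0.113 without Liver-RE replicate 1). In each of these genes the groups were well apart.

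Fitm1, a protein of lipid droplet formation, rose by 1.83 ± 0.26 (adjusted p = 0.0371, and 0.145 without Liver-RE replicate 1), from 0.628, 1.59 and 2.46 FPKM in KO to 9.10, 7.46 and 6.65, while WT livers had 1.44, 3.34 and 0.921. Abhd6, a monoacylglycerol lipase, was 14.5, 11.6 and 11.2 against 5.65, 4.59 and 4.62, a rise of 1.17 ± 0.13 (adjusted p = 0.014). As3mt, the arsenic methyltransferase, was 25.1, 22.6 and 32.5 against 12.2, 10.1 and 13.3 (adjusted p = 0.0406). Decr2, Abhd6, As3mt and the other called genes outside the naming rule were chosen after their values were seen.

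Among the lower genes, Lpl and Hectd2os had the smallest p-values. Lpl, the lipoprotein lipase, which splits circulating triglyceride and is low in normal adult liver (chr8:68880555-68906932), was 18.3, 15.2 and 18.1 FPKM in Liver-RE and 110.1, 101 and 82.9 in KO. WT livers had 4.21, 6.00 and 13.0, so that the Liver-RE livers lay between the other genotypes. Lpl fell by 2.44 on the log2 scale (SE 0.14, adjusted p = 0.00186). Hectd2os, a transcript antisense to Hectd2 (chr19:36619418-36689479), was 15.3, 8.13 and 13.0 FPKM in Liver-RE and 163, 140.2 and 140.0 in KO, with a difference of −3.54 ± 0.21 (adjusted p = 0.00186). Hectd2 itself was 1.19, 1.51 and 0.990 against 3.80, 3.11 and 4.35 (−1.09 ± 0.14). The 2 genes overlap and the use of strand in counting is not stated, so their reads may not be fully separate.

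Gstm2, Gstm1, Cyp2c55, Aox3 and Mug2 were also called lower. Gstm2, a glutathione S-transferase, was 36.1, 26.8 and 26.0 FPKM in Liver-RE, 161, 141 and 112 in KO and 18.4, 27.5 and 21.8 in WT. It fell by 2.18 on the log2 scale (SE 0.18, adjusted p = 0.00534). Its neighbour and paralog Gstm1, one of the most abundant transferases of liver, was 426, 420.3 and 434 against 1529, 1062 and 939.5, a difference of −1.43 ± 0.19 (adjusted p = 0.0282, and 0.128 without Liver-RE replicate 1). Cyp2c55, a P450 that xenobiotic receptors induce, was 4.66, 4.65 and 3.82 against 59.6, 34.7 and 18.4, a difference of −2.70 ± 0.37 (adjusted p = 0.0286, and 0.122 without Liver-RE replicate 1). The KO livers were uneven in Cyp2c55 and the Liver-RE livers close together. Aox3, an aldehyde oxidase, was 64.5, 67.3 and 66.7 against 122, 176 and 175, while Mug2, a murinoglobulin protease inhibitor with close paralogs, was 85.4, 121 and 78.5 against 285, 328 and 231. The adjusted p of Mug2 was 0.0242, and 0.119 without Liver-RE replicate 1. Of 34 tested xenobiotic genes, 1 was called higher (Ugt1a9) and 3 lower (Cyp2c55, Gstm1 and Gstm2), with a median of 0.25 and 20 positive differences. Over all 11804 tested genes, 3845 differences were positive, 0.237% of genes were called higher and 0.313% lower. Without Liver-RE replicate 1, 0 of the 34 were called higher and 1 lower.

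Loxl4, Col5a3, Ndrg1 and Cd9 were called lower as well. Loxl4, a lysyl oxidase that crosslinks collagen, was 0.869, 1.52 and 2.75 FPKM in Liver-RE and 19.6, 15.9 and 18.7 in KO, and 2.96, 5.18 and 4.26 in WT. It fell by 2.86 on the log2 scale (SE 0.24, adjusted p = 0.00534), below every WT liver. Col5a3, a fibrillar collagen chain, was 1.61, 1.36 and 1.08 against 3.86, 5.88 and 7.16 (−1.47 ± 0.20, adjusted p = 0.0278, and 0.0968 without Liver-RE replicate 1). Ndrg1, a gene induced by hypoxia and differentiation, was 7.27, 7.60 and 8.19 against 28.6, 30.7 and 23.9, with WT at 5.50, 5.83 and 6.27. Its difference was −1.72 ± 0.12 (adjusted p = 0.00314). Cd9, a tetraspanin, was 7.35, 8.79 and 9.08 against 22.4, 34.2 and 32.8, a difference of −1.69 ± 0.18 (adjusted p = 0.0132, and 0.0599 without Liver-RE replicate 1).

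Ntrk2, the receptor of brain-derived neurotrophic factor, was 0.851, 0.130 and 0.292 FPKM in Liver-RE and 5.03, 3.24 and 4.41 in KO (−1.89 ± 0.21, adjusted p = 0.014). Atp11a, a phospholipid flippase, was 1.41, 1.02 and 1.27 against 5.93, 5.86 and 9.29 (−1.82 ± 0.17, adjusted p = 0.00972). Grk5, a kinase of G protein-coupled receptors, was 1.53, 1.56 and 2.19 against 10.5, 6.10 and 8.51 (−1.74 ± 0.19, adjusted p = 0.014, and 0.0764 without Liver-RE replicate 1). In these 3 genes the WT livers were also below every KO liver. Fst, the activin antagonist follistatin, did not follow that order: Liver-RE livers had 0.381, 0.527 and 0.537 FPKM, KO 1.64, 2.38 and 2.43 and WT 2.03, 2.02 and 1.91.

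**Figure D1:**
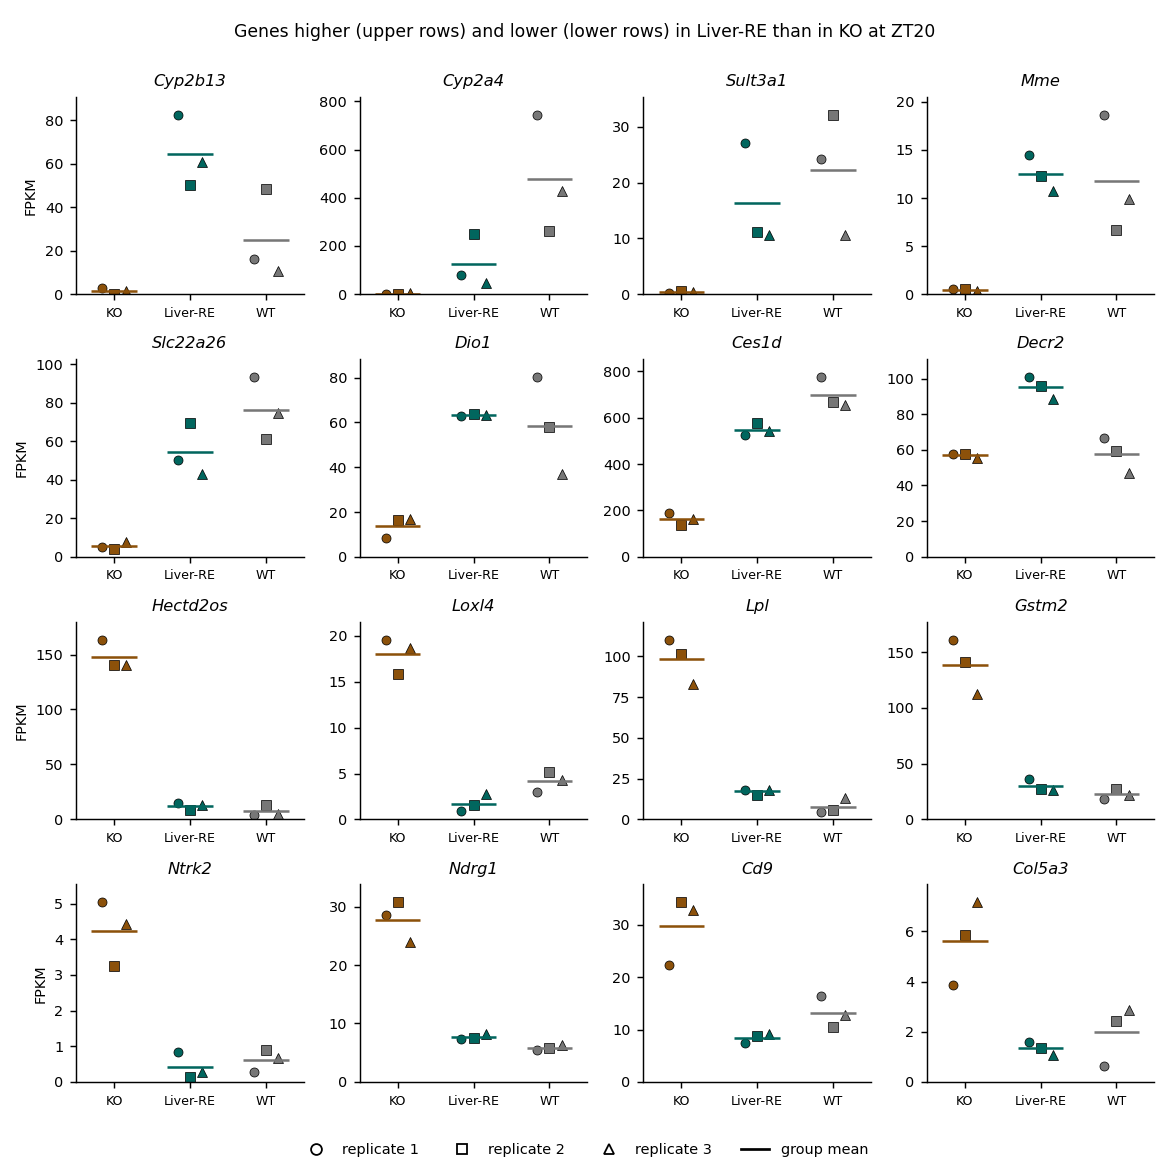
FPKM at ZT20 in each KO, Liver-RE and WT liver for 8 genes called higher and 8 called lower in Liver-RE; symbols mark the replicate number and lines the mean of 3 livers. In all 16 panels the KO and Liver-RE points do not overlap; in Lpl, Liver-RE livers lie between 15.2 and 18.3 FPKM, below KO (82.9 to 110.1) and above WT (4.21 to 13.0).

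The 65 genes were then followed at the other 5 times, in separate livers. Over the 30 Liver-RE and KO libraries of ZT0, 4, 8, 12 and 16, 2918 of the tested genes (24.7%) were called in the mean difference, 727 higher (6.16%) and 2191 lower (18.6%). Of the 65, 60 were called there too, all with the same sign: 28 of 28 higher and 32 of 37 lower genes. Mme, for example, differed by 2.82 ± 0.13 over the other times and by 3.19 at ZT20. Lpl differed by −2.60 ± 0.15 over the other times and by −2.44 at ZT20. The sign was the same at all 6 times for 59 genes.

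Single times have as few livers as ZT20. Called genes numbered 88 at ZT0 (0.746%), 282 at ZT4 (2.39%), 381 at ZT8 (3.23%), 349 at ZT12 (2.96%) and 323 at ZT16 (2.74%). ZT20 had the fewest of the 6 times, and 14 of its 65 genes were called at every time, among them Cyp2a4, Mme, Ugt1a9, Ces1d, Smim22, Slc39a5, As3mt, Ndrg1, Atp11a, 4930459C07Rik, Lpl, Loxl4 and Hectd2os. At the other extreme, 9 genes were called at no other single time, among them Decr2, Cpox, Glrx, Efna3, Mir6922, Mir7013, Mir7088 and Pisd-ps2. Of these, Decr2, Cpox and Glrx were called in the mean of the other 5 times, with differences there of 0.34 for Decr2, 0.26 for Cpox and 0.42 for Glrx, the glutaredoxin.

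**Figure D2:**
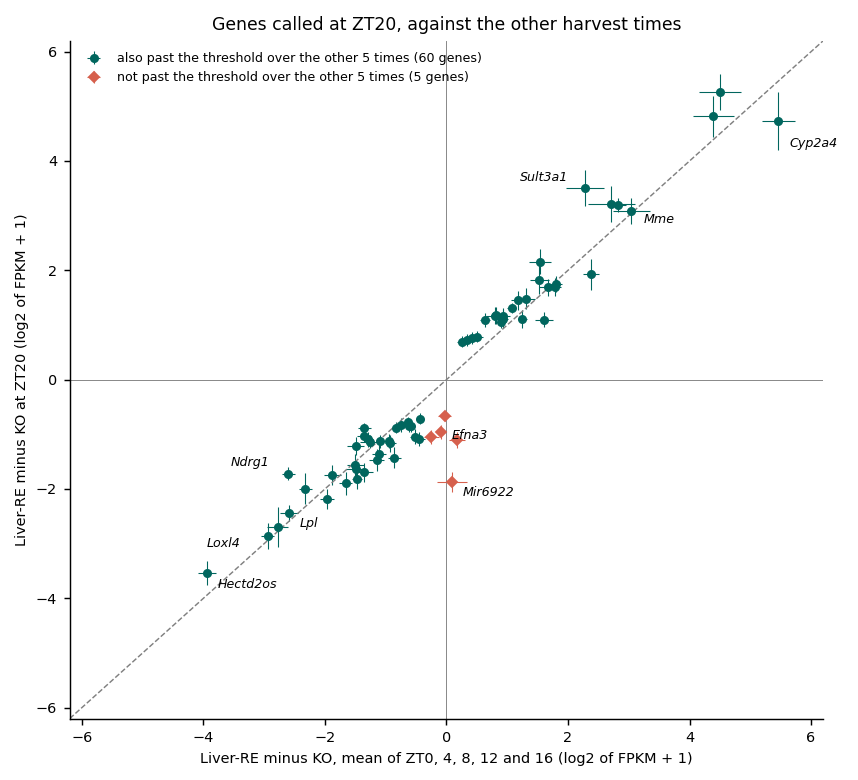
Difference between Liver-RE and KO in log2(FPKM + 1) at ZT20 (vertical axis) against the mean difference over the other 5 times (horizontal axis) for the 65 genes called at ZT20, with SE bars and a dashed line where both are equal. Circles mark the 60 genes also called over the other times, and the 5 diamonds (Efna3, Mir6922, Mir7013, Mir7088 and Pisd-ps2) lie below 0 on the vertical axis and near 0 on the horizontal one.

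What set ZT20 apart was tested directly, as the difference at ZT20 minus the mean difference over the other 5 times in the 36 libraries. No gene passed (0 of 11804, limma), and the smallest adjusted p was 0.0978. An unadjusted p passed 0.05 in 650 genes (5.51%), of which 252 were higher (2.13%) and 398 lower (3.37%) at ZT20. With ZT16 and ZT0 as the reference, again 0 genes passed. Without Liver-RE replicate 1 the smallest adjusted p was 0.620, and without Liver-RE replicate 3 a single gene passed, Cdkn1a (2.66, adjusted p = 0.0302). The values that follow are therefore descriptions of the leading genes, chosen after their values were seen.

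Of the 10 leading genes, 7 were called lower in Liver-RE over the other 5 times and not called at ZT20: Cdkn1a, Clpx, Insig2, Tab2, Clock, Arl4a and Nmral1. Cdkn1a, the cell cycle inhibitor p21, had Liver-RE means of 1.36, 0.416, 0.434, 0.945 and 3.19 FPKM at ZT0, 4, 8, 12 and 16 and 10.3 ± 8.90 (SD, n = 3) at ZT20. KO means stayed between 3.70 and 7.38. The 3 Liver-RE livers of ZT20 had 20.5, 5.87 and 4.46 FPKM, and the KO livers 5.50, 6.79 and 4.06, so replicate 1 alone lay above the KO livers. The contrast of ZT20 with the other times was 2.27 ± 0.43 (unadjusted p = 1.33e-05, adjusted p = 0.0978), and 1.67 without that library.

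Clpx, a mitochondrial unfoldase that takes part in heme synthesis, had Liver-RE means of 64.1, 34.6, 24.0, 61.4 and 80.9 FPKM from ZT0 to ZT16 and 112 ± 18.8 at ZT20, against KO means between 126 and 158. The ZT20 livers had 129.6, 92.2 and 114 in Liver-RE and 136, 121 and 122 in KO, and the contrast was 1.38 ± 0.27 (adjusted p = 0.0978, and 1.27 on the log2 scale without Liver-RE replicate 1). Insig2, which holds SREBP precursors in the endoplasmic reticulum, differed by −0.42, −1.83, −1.99, −1.18 and −1.04 from ZT0 to ZT16 and by 0.40 at ZT20, where Liver-RE livers had 137, 88.0 and 77.1 FPKM and KO 74.2, 86.5 and 62.8. Its contrast was 1.69 ± 0.35 (adjusted p = 0.135). Clock differed by −0.48, −0.73, −1.05, −0.72 and −0.46 from ZT0 to ZT16 and by −0.01 at ZT20, where the 6 livers lay between 10.9 and 11.7 FPKM. Its contrast was 0.68 ± 0.15 (adjusted p = 0.216).

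Efna3 and Mir7013 were not called over the other times and were lower at ZT20. Efna3, an ephrin ligand of Eph receptors, differed by −0.19, −0.04, −0.24, −0.08 and 0.09 from ZT0 to ZT16. At ZT20 it was 0.118, 0.167 and 0.185 FPKM in Liver-RE and 0.914, 1.29 and 1.61 in KO, a difference of −0.96 ± 0.13 (adjusted p = 0.0287, and 0.125 without Liver-RE replicate 1). KO means were between 0.479 and 0.616 at the other times and 1.27 ± 0.347 at ZT20, so the KO level was also at its highest there. Its contrast was −0.87 ± 0.19 (adjusted p = 0.181).

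The small RNA loci among the 9 need care, since the libraries were made from total RNA and a read from a host gene may also count for the locus. Mir6922, which lies in Srebf1, was 0.481, 0.279 and 0.413 FPKM in Liver-RE and 2.85, 4.35 and 5.37 in KO (−1.87 ± 0.19, adjusted p = 0.0107). Its host Srebf1, the lipogenic regulator SREBP1, was 22.3, 31.4 and 50.3 against 95.4, 45.4 and 57.2 (adjusted p = 0.254), with overlapping groups. Mir7013 was 0.211, 0.236 and 0 against 1.22, 1.26 and 1.95, and Mir7088, in Mst1, was 0.467, 0.206 and 0.0887 against 1.46, 1.58 and 1.72. No level of a mature microRNA can be read from these values.

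**Figure D3:**
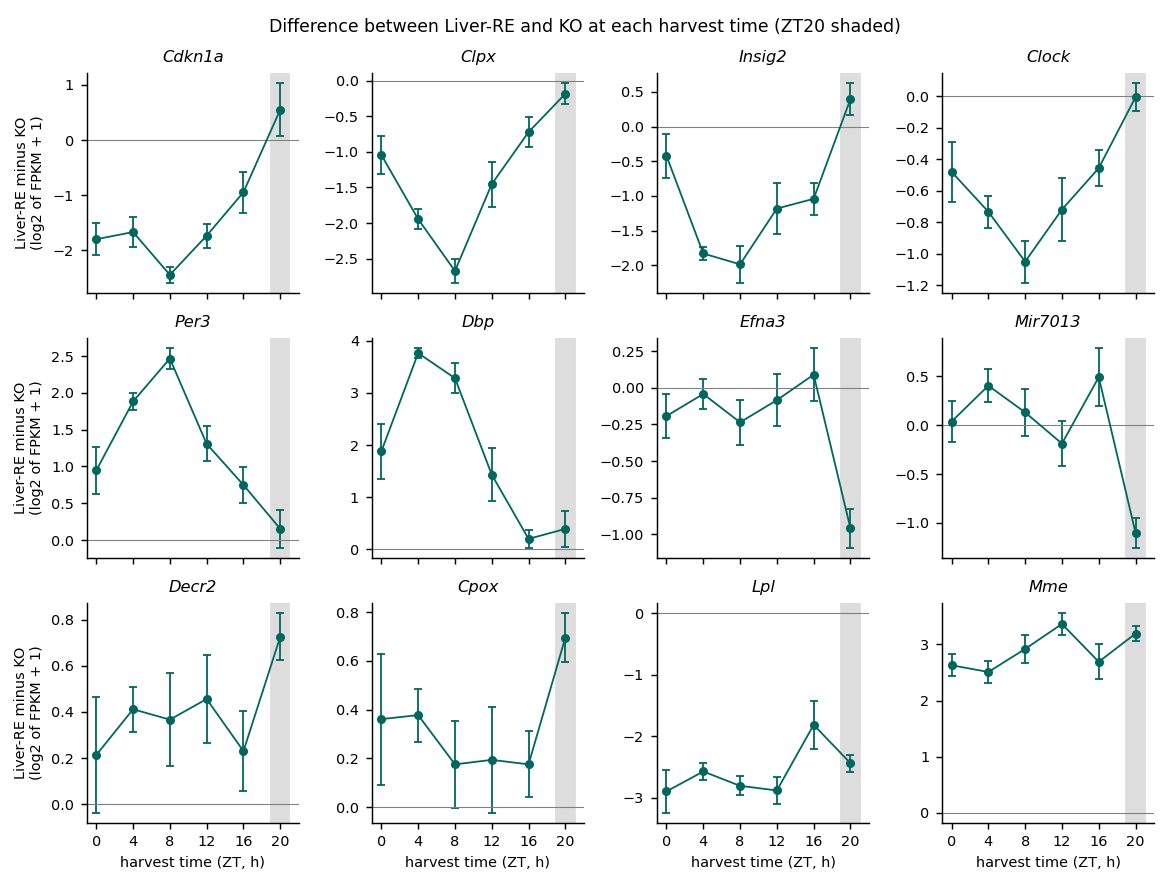
Difference between Liver-RE and KO in log2(FPKM + 1), with its SE, at each of the 6 harvest times for 12 genes, with ZT20 shaded. Cdkn1a, Clpx, Insig2 and Clock are below 0 from ZT0 to ZT16 and at 0.55, −0.18, 0.40 and −0.01 at ZT20, while Efna3 is near 0 at the other times and at −0.96 at ZT20.

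The clock itself was not called at ZT20. Of 25 genes on the list of clock activators, repressors and outputs, 24 were tested and 0 were called by limma, with 3 higher and 6 lower at an unadjusted p under 0.05 and a median of −0.04. At that p, 3.64% of all tested genes were higher and 13.5% lower. Over the other 5 times 10 of the 24 were called higher and 9 lower, beside 6.16% and 18.6% of all tested genes. The fit of 36 libraries called 2 higher (Nr1d1 and Nr1d2) and 3 lower, Npas2 and Cry1 among them, at ZT20, where that fit called 0.737% of all genes higher and 1.77% lower. Without Liver-RE replicate 1 those shares were 0.347% and 0.652%.

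Promoter sequences of 3 clock genes are shown because they carry the E-box that BMAL1 and CLOCK bind, CACGTG, which is in capitals. They are the 250 bases before the start site that the RefSeq promoter table gives, 5′ to 3′ on the gene's strand, on GRCm38.p6: Cry1 at chr10:85185055-85185304 on the minus strand, Lonrf3 at chrX:36328159-36328408 on the plus strand and Ciart at chr3:95882229-95882478 on the minus strand.
Cry1: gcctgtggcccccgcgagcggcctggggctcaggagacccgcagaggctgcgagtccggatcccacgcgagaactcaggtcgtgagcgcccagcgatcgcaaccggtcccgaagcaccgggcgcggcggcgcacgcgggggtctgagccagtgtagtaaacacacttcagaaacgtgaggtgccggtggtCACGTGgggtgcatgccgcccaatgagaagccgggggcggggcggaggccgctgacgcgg
Lonrf3: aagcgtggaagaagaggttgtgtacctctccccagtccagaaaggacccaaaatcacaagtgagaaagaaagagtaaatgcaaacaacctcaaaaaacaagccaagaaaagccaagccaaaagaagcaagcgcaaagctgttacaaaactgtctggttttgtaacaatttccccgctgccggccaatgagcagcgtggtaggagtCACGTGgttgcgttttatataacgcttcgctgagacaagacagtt
Ciart: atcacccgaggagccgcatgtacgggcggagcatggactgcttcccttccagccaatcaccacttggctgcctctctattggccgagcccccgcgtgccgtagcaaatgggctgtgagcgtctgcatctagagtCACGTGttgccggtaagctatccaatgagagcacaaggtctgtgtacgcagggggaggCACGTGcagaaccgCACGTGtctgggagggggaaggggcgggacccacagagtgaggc
The single E-box lay 60 bases before that site in Cry1 and 45 in Lonrf3, and the 3 of Ciart lay 116, 58 and 44 bases before it. The RefSeq gene record of Lonrf3 begins earlier, at 36328358, so that its E-box lies inside the record. The record of Ciart also reaches into its window, up to 95882257, short of the E-boxes. Of all 32851 windows of this length, 6.02% hold CACGTG on either strand, which is its own reverse complement, and 8.49% of those of tested genes do. On the clock list 7 of 28 windows (25.0%) hold it, from Ciart, Cry1, Lonrf3, Per1, Tef and Tspan4. Windows of genes called higher held it in 1 of 33 (3.03%, Aldh3a2) and those of genes called lower in 1 of 34 (2.94%, Phospho1). A match is a description of letters in these windows only.

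Among the activators, Clock had nearly one level in all 6 livers, given above. Npas2, which can replace CLOCK, was 1.104, 0.972 and 1.797 FPKM in Liver-RE and 5.71, 3.46 and 3.68 in KO, with WT at 0.404, 1.56 and 0.737. The groups did not overlap, and the difference was −1.20 ± 0.20 (adjusted p = 0.0627, and 0.0016 in the fit of 36 libraries).

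Among the repressors, Cry1, whose promoter is printed above, was 3.63, 9.23 and 9.69 FPKM in Liver-RE and 18.5, 18.2 and 20.5 in KO. All Liver-RE livers were below all KO livers, and WT livers were at 17.3, 9.02 and 17.3. The difference was −1.33 ± 0.31 (adjusted p = 0.116), and −0.94 without Liver-RE replicate 1 (adjusted p = 0.0448). Per2 was 1.03, 1.76 and 1.60 against 2.73, 3.79 and 3.84 (−0.86 ± 0.16, adjusted p = 0.0848). Per3 was 0.933, 2.41 and 0.629 against 1.06, 0.920 and 0.968, with overlap and a difference of 0.15 at ZT20, against 1.47 ± 0.12 over the other 5 times. Ciart, with 3 E-boxes, was 3.21, 0.146 and 0.136 FPKM in Liver-RE against 0.209, 0.177 and 0.169 in KO. Only replicate 1 of Liver-RE was above KO in Ciart. WT livers had 3.76, 0.378 and 0.881 FPKM, also highest in replicate 1.

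The REV-ERBs form the other arm. Nr1d1 was 10.8, 1.12 and 1.64 FPKM in Liver-RE and 0.202, 0.280 and 0.323 in KO, with WT at 0.385, 0.870 and 0.240. All 3 Liver-RE livers were above all KO livers, replicate 1 by far the most, and the difference was 1.67 ± 0.59 (adjusted p = 0.23). Nr1d2 was 14.6, 8.37 and 3.85 against 1.51, 1.46 and 1.37, a difference of 1.87 ± 0.37 (adjusted p = 0.0985, and 0.00134 in the fit of 36 libraries). In the fit of 36 libraries without Liver-RE replicate 1, the adjusted p was 0.314 for Nr1d1, 0.0243 for Nr1d2, 0.0379 for Cry1 and 0.0144 for Npas2.

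Among the outputs, Dbp was 3.94, 2.13 and 0.680 FPKM in Liver-RE and 1.21, 1.23 and 1.34 in KO. The groups overlap, and the difference was 0.39 at ZT20 against 2.11 ± 0.21 over the other 5 times. Lonrf3 was 1.25, 4.94 and 3.04 against 3.69, 4.07 and 4.20, and Wee1, a kinase that holds cells before mitosis, was 0.863, 4.59 and 1.32 against 2.38, 2.52 and 1.88. In each of these the KO livers were close together and the Liver-RE livers spread on both sides of them.

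**Figure D4:**
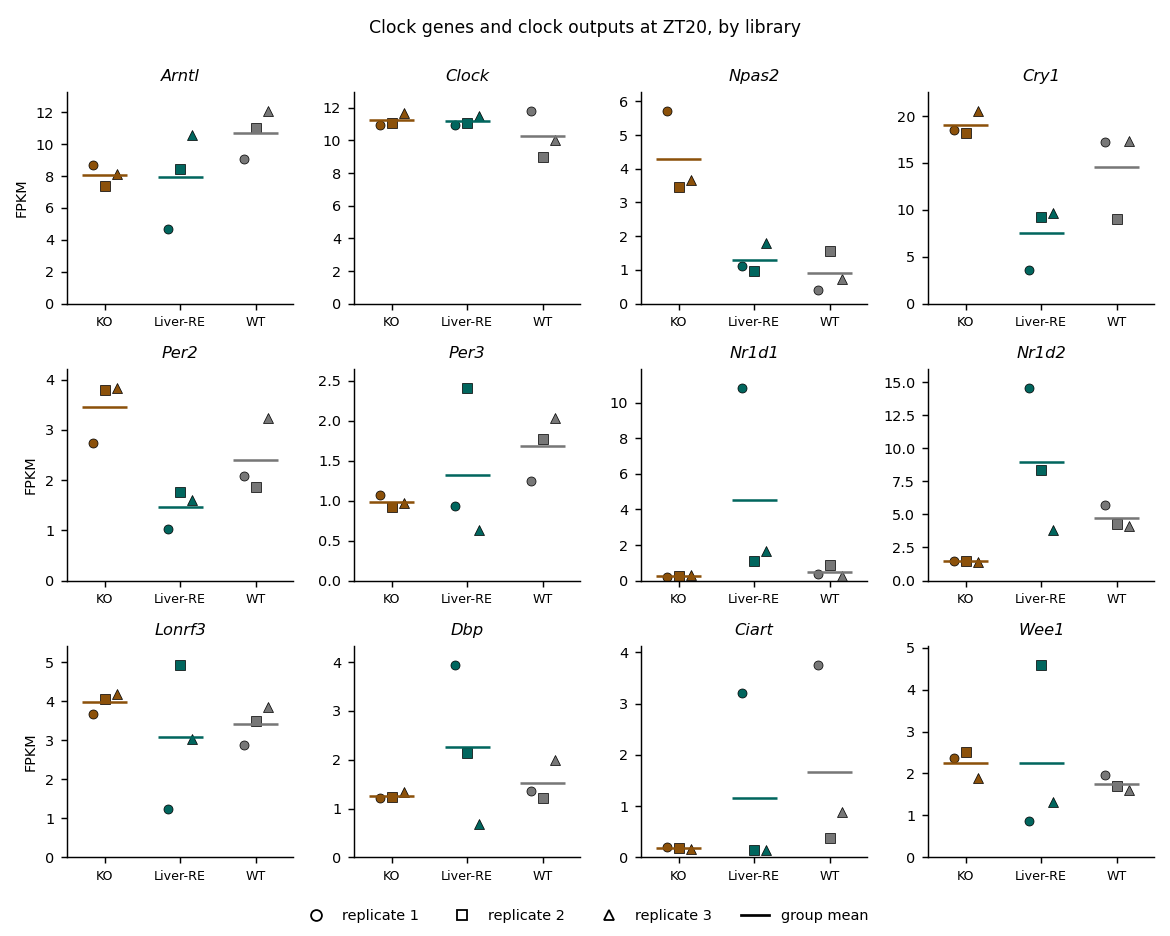
FPKM at ZT20 in each KO, Liver-RE and WT liver for 12 clock genes; symbols mark the replicate number and lines the mean of 3 livers. Liver-RE replicate 1 has the highest Nr1d1 (10.8), Nr1d2 (14.6) and Dbp (3.94) and the lowest Arntl (4.68), Cry1 (3.63) and Lonrf3 (1.25) of the 3 Liver-RE livers.

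No gene of fatty acid oxidation or synthesis passed the test of ZT20 against the other times, and few passed at ZT20 itself. Of 28 tested genes of fatty acid oxidation and PPAR-alpha targets, 1 was called higher (0 without Liver-RE replicate 1) and 0 lower. The median was 0.60 against −0.09 over all genes, 26 of 28 differences were positive, and 16 were higher at an unadjusted p under 0.05 with none lower. Over all 11804 tested genes, 3845 differences were positive and 3.64% of genes were higher at that p. Acadl, a mitochondrial acyl-CoA dehydrogenase, was 89.5, 88.9 and 83.8 FPKM against 54.8, 55.3 and 62.9 (adjusted p = 0.0805). Acot2, a mitochondrial thioesterase, was 6.93, 6.68 and 3.59 against 2.60, 1.63 and 1.70 (adjusted p = 0.099). The fit of 36 libraries called 5 of the 28 higher, Acadl, Acot2, Acot4 and Ppara among them, beside 0.737% of all genes. Without Liver-RE replicate 1 that fit called 1 of the 28, beside 0.347% of all genes. Over the other 5 times the list's median was 0.21, with 9 higher and 3 lower, beside 6.16% and 18.6% of all tested genes.

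Of 25 tested genes of fatty acid and triglyceride synthesis, 0 were called at ZT20 and the median was 0.15. Over the other 5 times 18 of the 25 were called higher, beside 6.16% of all tested genes, with a median of 0.63. The contrast of ZT20 with those times had an unadjusted p under 0.05 in 8 genes, all lower at ZT20. Without Liver-RE replicate 1 it did so in 2, and none of these passed adjustment. Of all 11804 tested genes, 3.37% were lower in the contrast at that p, and 254 genes without Liver-RE replicate 1. Fasn, fatty acid synthase, was 78.2, 82.5 and 174 FPKM in Liver-RE and 214, 89.7 and 84.3 in KO, a difference of −0.17 at ZT20 against 1.23 over the other times. Elovl6, a fatty acid elongase, was 29.8, 60.7 and 49.7 against 41.2, 32.2 and 22.2, a difference of 0.52 against 1.87. In both genes the ZT20 groups overlap widely.

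Cholesterol genes had 0 calls among 26, a median of −0.48 and 25 negative differences. Of all 11804 tested genes, 7959 had negative differences, to be set beside this count and those below. Sqle, squalene epoxidase, was 29.4, 27.7 and 61.0 FPKM against 50.9, 74.9 and 67.3 (adjusted p = 0.265). Ribosomal protein genes had 0 calls among 31 and 30 negative differences, with a median of −0.35 and 21 lower at an unadjusted p under 0.05. Over the other 5 times 19 of these were called lower. Of all tested genes, 13.5% were lower at that p at ZT20 and 18.6% were called lower over the other 5 times. Lipid uptake and droplet genes had 1 higher (Fitm1) and 1 lower (Lpl) of 22, and heme and iron genes had 1 higher (Cpox) of 21, with a median of −0.16 and 16 negative differences. Without Liver-RE replicate 1, Lpl alone of these 2 lists kept its call. Fasn, Elovl6 and Sqle were chosen after their values were seen.

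Some lists moved with 1 library. The glucocorticoid-responsive list (0 of 18 called) had a median of 0.49, and −0.06 without Liver-RE replicate 1. Its summed level was 4672, 871 and 957 FPKM in Liver-RE and 718, 789 and 1032 in KO. The cell cycle list (0 of 21) had a summed level of 70.0, 171 and 64.1 in Liver-RE against 64.9, 83.9 and 66.7 in KO, with a median of 0.04, 0.35 without Liver-RE replicate 1 and −0.18 without Liver-RE replicate 2. The list of the unfolded protein response (0 of 20) had a median of −0.49, and −0.21 without Liver-RE replicate 1.

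**Figure D5:**
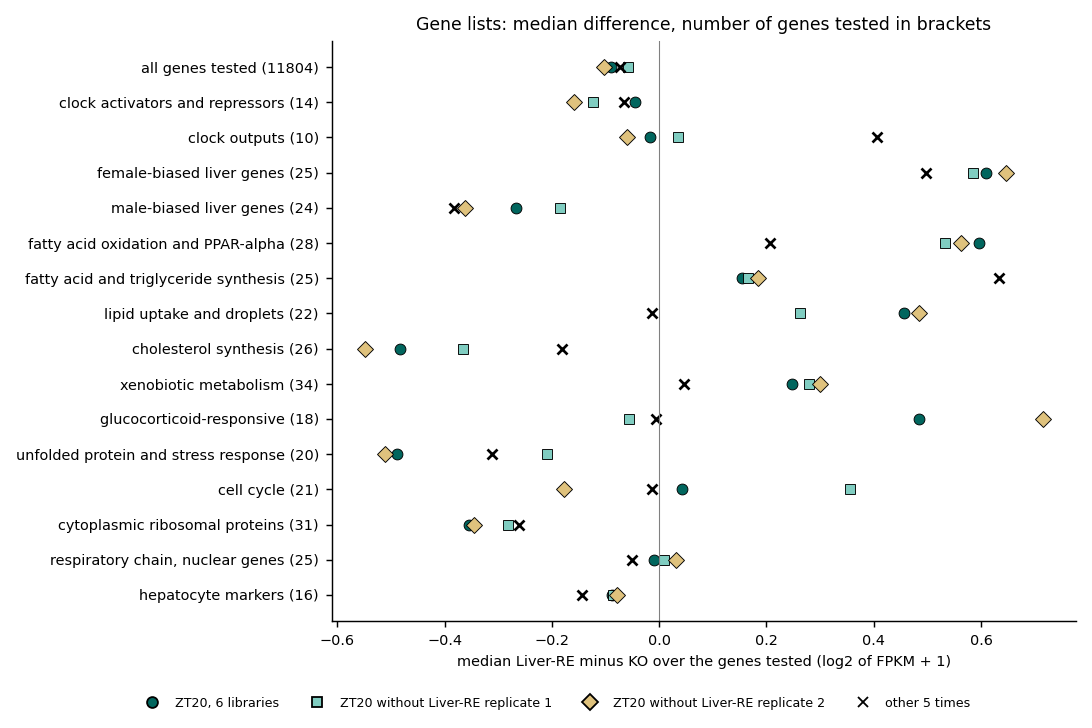
Median difference between Liver-RE and KO in log2(FPKM + 1) over the tested members of 16 gene lists, at ZT20 with all libraries, at ZT20 without Liver-RE replicate 1 or 2, and over the other 5 times. Fatty acid oxidation is at 0.60 at ZT20 and 0.21 over the other times, and fatty acid synthesis at 0.15 and 0.63.

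Markers of the cell types of liver were compared in the same livers. Alb, albumin, the defining hepatocyte product, was 28342, 40853 and 34745 FPKM in Liver-RE, 11613, 19594 and 11622 in KO and 44181, 31178 and 34879 in WT. It took 8.63%, 11.8% and 9.84% of all FPKM in Liver-RE and 3.57%, 5.62% and 3.52% in KO, and the difference was 1.31 (adjusted p = 0.105). The 16 hepatocyte markers had 0 calls and a median of −0.09, and their summed level was 51491 to 66629 FPKM in Liver-RE and 36671 to 49899.9 in KO. Kupffer cell (0 of 15, median 0.09), endothelial (0 of 15, median 0.07) and stellate cell markers (0 of 14, median 0.08) had overlapping sums. Their ranges were 297 to 367 in Liver-RE and 225 to 447 in KO for Kupffer cells, 203 to 232 and 201 to 236 for endothelial cells, and 198 to 234 and 209 to 238 for stellate cells.

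Cholangiocyte markers, 4 of 9 tested, had 0 calls, a median of −0.62 and sums of 18.2 to 25.0 FPKM in Liver-RE against 23.4 to 81.7 in KO. Sox9, one of them, was 0.356, 0.483 and 0.620 against 1.68, 1.24 and 1.52 (adjusted p = 0.0553). Over the other 5 times all 4 were called lower, beside 18.6% of all tested genes. Adipocyte markers, 4 of 10 tested, had 0 calls, 4 positive differences, a median of 0.51 and sums that did not overlap, 848 to 969.7 FPKM in Liver-RE and 303 to 578 in KO. Most of that sum was Car3, carbonic anhydrase 3, a gene that liver also expresses, at 886, 833 and 955 FPKM in Liver-RE against 568, 290.2 and 481 in KO (adjusted p = 0.126). The fit of 36 libraries called 2 of the 4 higher (Car3 and Cidec), and 0 without Liver-RE replicate 1. Of all tested genes, those fits called 0.737% and 0.347% higher. Over the other 5 times 3 of the 4 were called higher, beside 6.16% of all tested genes. Lymphocyte (4 tested), neutrophil (2) and erythroid markers (1) had 0 calls and overlapping sums. No listed marker in the table was at 0 in all 6 livers. In bulk tissue, fewer cells of a type and less RNA per cell cannot be told apart, and the part of these markers in the differences above was not tested.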

How the data were processed

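Per the labels' protocols, liver RNA was freed of ribosomal RNA and sequenced from 1 end as stranded libraries. CASAVA 1.8.2 and mm10 stand, without a role, in the submitters' processing notes. How strand was used in counting, like the aligner and annotation, was not given in the sources used here. One table with 18079 genes was deposited; it names no unit, and the values were taken as FPKM made by the authors.

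Tests used limma 3.58.1 in R 4.3.3 on log2(FPKM + 1), two-sided, with trended empirical Bayes, for the 11804 genes whose mean over the 6 ZT20 libraries reached 0.5 FPKM; the other 6275 genes fell below that filter. P-values were adjusted over all tested genes, with a threshold of 0.05. ZT20 was set against the other 5 times in 1 limma model of 36 libraries. Nothing in the labels says whether replicates share a litter or batch, so p-values measure only the spread between these samples. The functions were tested on simulated data. Python 3.11.15, pandas 2.3.3, numpy 2.4.6 and matplotlib 3.10.9 made the summaries and figures.

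The comparison, gene lists and members were chosen with earlier results of these data known. The naming rule took all measured clock genes, the 15 highest and 15 lowest differences among called genes with at least 1 FPKM in the higher group and no overlap, any called contrasts of ZT20 with the other times, and up to 4 members per list by p-value. Outside the clock list it skipped predicted genes and pseudogenes. Some genes the rule takes are not reported here. Settings also tried were each library left out, wider fits, a replicate block, no filter or a mean of 1, a pseudocount of 0.1, quantile normalization, rescaling without the 20 highest genes, and robust empirical Bayes. Coordinates and promoters are from RefSeq on GRCm38.p6, matched by symbol.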

Additional observations from a re-analysis of the deposited data

How the results depend on the processing

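The 65 calls at ZT20 (28 higher, 37 lower) became 17 to 103 when each library was left out in turn, with 8 to 45 higher and 9 to 58 lower. A fit of all 36 Liver-RE and KO libraries gave 296 (87 higher, 209 lower), the same without Liver-RE replicate 1 gave 118 (77 lower), and a fit of all 54 libraries gave 335 (87 higher, 248 lower). The other settings stayed within 1.5 times. The balance turned to 15 higher and 11 lower without Liver-RE replicate 1 and to 38 higher and 35 lower under quantile normalization. Of 169 named genes, 16 changed sign in at least 1 setting, 7 of them without Liver-RE replicate 1 and 7 without Liver-RE replicate 2; none of the 16 was called, with all libraries or where its sign changed. The contrast of ZT20 with the other times had 0 calls, 0 to 1 when each library was left out (Cdkn1a without Liver-RE replicate 3), and 1 with no filter (Sulf1, −0.35, adjusted p = 0.0481). By WT profiles, 1 Liver-RE library in place of 0 was nearest to ZT20. The causes were not tested.

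Groups share replicate numbers, and the labels do not say whether these pair the samples. Deviations of same-numbered libraries correlated at 0.17, 0.42 and −0.07, and those of differently numbered ones at −0.38 to 0.24. So few libraries cannot settle whether the numbers pair them, and the main test used no pairing. With the replicate number as a block, 31 genes were called higher and 33 lower, 42 of them among the 65. With 3 livers a group, depth of at least 25.8 M reads and no counts in the table, counting error could not be separated from the spread between livers, and small differences were not detectable.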

Other observations

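Some genes of steroid and bile acid sulfation varied widely among the Liver-RE livers. Sult2a1, a sulfotransferase for steroids and bile acids, was 78.4, 0.988 and 36.1 FPKM in Liver-RE at ZT20, 3.08, 0.181 and 1.08 in KO and 80.3, 225 and 147 in WT. Sult2a2 was 84.8, 6.00 and 43.7 in Liver-RE, 15.2, 0.136 and 0.797 in KO and 55.3, 174 and 126 in WT. In both genes Liver-RE replicate 2 and KO replicate 2 were the lowest of their groups, as they were for Cyp17a1, given in the report. Sult2a7 was also lowest in these libraries, at 5.85, 1.63 and 7.07 in Liver-RE and 35.6, 5.04 and 13.0 in KO. Its KO livers were thus not below its Liver-RE livers. Serpina1e, an alpha-1 antitrypsin paralog, had its highest value in replicate 2 of both groups, at 11.8, 584 and 42.9 FPKM in Liver-RE and 2.43, 157 and 28.2 in KO. All genes named in this paragraph are among those in which Liver-RE replicate 2 was over 2-fold below (24) or above (161) both other Liver-RE livers. They were chosen after their values were seen, so their low or high value in that library is a result of the choice.

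Several genes were highest in replicate 1 of both Liver-RE and WT at ZT20. They were chosen after their values were seen. Mt2, Pck1 and Lpin1 are from the 71 genes in which Liver-RE replicate 1 was over 2-fold above both other Liver-RE livers. Their high value in that library is thus a result of the choice. Mt2, a metallothionein, was 422, 28.3 and 13.8 FPKM in Liver-RE, 1.88, 2.30 and 10.05 in KO and 826, 76.0 and 283 in WT. Pck1, an enzyme of gluconeogenesis, was 1810.1, 361 and 342 in Liver-RE, 149, 377 and 510.5 in KO and 1639, 248 and 877 in WT. Lpin1, a phosphatidate phosphatase, was 79.1, 8.63 and 17.1 in Liver-RE, 14.4, 11.1 and 7.89 in KO and 104, 11.6 and 11.6 in WT. Angptl4, an inhibitor of lipoprotein lipase, was 90.8, 58.9 and 9.88 in Liver-RE and 3.67, 7.91 and 2.74 in KO (2.86, adjusted p = 0.156), with no overlap of these groups. WT livers had 101, 3.64 and 13.2 FPKM of Angptl4.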
